A study of Mus musculus with 11 samples.

Results

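Aminoacyl-tRNA synthetases join each amino acid to its tRNA, the step that supplies the ribosome with charged tRNA. Most amino acids are served by 2 nuclear genes, 1 for the cytosol and 1, marked by the suffix 2, for the mitochondrial matrix. Several cytosolic enzymes are held in a multi-synthetase complex by the scaffold proteins Aimp1, Aimp2 and Eef1e1. In activated T cells the cytosolic enzymes serve growth, and many of their genes are known targets of Atf4, the transcription factor of the integrated stress response. This family was chosen with earlier results of these data known. Its genes were then taken by symbol, as those of the form "letter, ars, with or without 1 or 2", with Eprs, Farsa, Farsb, Ears2, Pars2 and the 3 scaffolds. This gave 40 of the 37847 genes with any count: 20 cytosolic enzymes or subunits, 17 mitochondrial enzymes and 3 scaffolds. All 40 passed the filter that left 12932 genes for testing, a mean above 10 counts in at least 1 group.

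The cells were vTreg53 TCR-transgenic (vTreg53 Tg+) Treg cells on the C57BL/6 background, which carry the TCR of 1 Treg clone from visceral adipose tissue (VAT). Donor cells came from pooled spleen and lymph nodes (Spl/LN) and were moved into CD45.1 B6 mice, and all libraries carry the labels 15wk and M. After 6 weeks the mice received Fat1562, a surrogate agonist peptide for this TCR, in complete Freund's adjuvant under the skin, with a boost in incomplete adjuvant into the peritoneum a week later and the sort after another week. The paper describes mincing VAT and digesting it with collagenase, and names no such step for Spl/LN. In each comparison between VAT and Spl/LN, tissue and digestion thus cannot be told apart. Clonotype+ Treg cells were double-sorted, 1000 per library, and copied into cDNA by Smart-seq2 from polyadenylated RNA. There were 3 Spl/LN and 2 VAT libraries from mice given adjuvant alone, and 3 Spl/LN and 3 VAT libraries from mice given adjuvant/Fat1562. The paper describes the controls as given adjuvant alone, while the labels call them unimmunized and name PBS. All 4 groups thus hold transferred cells of 1 clonotype, and the endogenous Treg cells of the hosts were not measured. The methods call the libraries biological replicates without saying how many mice stand behind each, so p-values measure the spread between these libraries.

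Total counts ran from 4490242 to 6570057 per library. Levels are given as normalized counts, that is counts scaled by TMM to a library of mean size, with the SD between libraries as error. Foxp3, the factor that defines Treg cells, stood between 6746 and 10255 in every library and Cd4 between 2114 and 3518. The summed level of 7 adipocyte markers was at most 21.2 and that of 8 macrophage and dendritic cell markers at most 118. The 7 B cell markers summed to 17129 to 17157 in Spl/LN with adjuvant alone and to 12110 to 13160 with adjuvant/Fat1562. In VAT they summed to 6405 to 8618 with adjuvant/Fat1562, and to 6180 and 30442 with adjuvant alone. The 30442 came from VAT adjuvant alone replicate 2, almost all of it Ighm (28545) with Jchain (1731). The B cell genes Ms4a1 and Pax5 were at 6.51 or less in every library. For comparisons that use VAT adjuvant alone replicate 2, the calls and medians of the synthetase genes are also given without it. So are the counts or estimates of the related lists. In VAT with adjuvant/Fat1562 the 6 CD8 T and NK cell markers summed to between 381 and 538, against 232 to 340 in the other groups, with Prf1 the largest part and Cd8a at 0 in every VAT library. In VAT with adjuvant alone the 7 stroma and endothelium markers summed to 256 and 309, against 445 to 633 elsewhere, almost all of it Pecam1, with Pdgfra, Dcn and Cdh5 at 4.49 or less. The part of these lists in the results below was not tested. In such bulk libraries, fewer cells of a type and less RNA per cell cannot be told apart.

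The promoters of the synthetase genes were read from RefSeq (GRCm38.p6), as windows of 300 bases from 250 before to 50 after the start of the gene, for the 30 of 40 genes that matched. The motif TGATGNAA, the letters of the C/EBP-ATF response element, was searched on both strands. It occurred in 5 of 13 cytosolic enzymes (38.5%), namely Aars, Gars, Iars, Tars and Yars, in 0 of 14 mitochondrial enzymes and in 4.06% of 27025 promoters. The E-box CACGTG, a motif of Myc and related factors, was in 30.8% of the cytosolic, 7.14% of the mitochondrial and 7.24% of all promoters. CCAAT, a motif bound by NF-Y, was in 53.8%, 42.9% and 37.9%. A match describes the letters only, and its absence says only that these letters are not in the window. The 250 bases before the start are shown, 5′ to 3′ on the strand of the gene, for the genes called between tissues below that matched RefSeq, with TGATGNAA or its reverse complement in capitals. They lie at chr8:111033592-111033841 (Aars), chr6:55037751-55038000 (Gars), chr1:185362794-185363043 (Eprs) and chr9:123366677-123366926 (Lars2), all on the plus strand.
Aars: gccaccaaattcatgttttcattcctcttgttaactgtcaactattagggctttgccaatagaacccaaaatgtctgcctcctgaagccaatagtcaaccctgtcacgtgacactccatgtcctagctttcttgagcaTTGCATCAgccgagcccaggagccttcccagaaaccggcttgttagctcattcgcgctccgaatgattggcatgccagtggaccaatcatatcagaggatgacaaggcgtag
Gars: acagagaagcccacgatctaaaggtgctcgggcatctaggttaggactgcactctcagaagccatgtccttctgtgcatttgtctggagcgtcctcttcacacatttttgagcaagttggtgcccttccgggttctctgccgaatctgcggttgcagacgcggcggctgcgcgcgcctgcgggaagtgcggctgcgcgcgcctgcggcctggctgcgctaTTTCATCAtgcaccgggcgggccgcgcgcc
Eprs: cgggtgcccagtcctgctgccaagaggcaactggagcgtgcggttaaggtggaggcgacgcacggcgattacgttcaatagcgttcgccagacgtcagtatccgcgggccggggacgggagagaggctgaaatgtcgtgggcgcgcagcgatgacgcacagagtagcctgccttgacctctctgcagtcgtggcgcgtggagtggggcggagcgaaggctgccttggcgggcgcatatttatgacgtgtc
Lars2: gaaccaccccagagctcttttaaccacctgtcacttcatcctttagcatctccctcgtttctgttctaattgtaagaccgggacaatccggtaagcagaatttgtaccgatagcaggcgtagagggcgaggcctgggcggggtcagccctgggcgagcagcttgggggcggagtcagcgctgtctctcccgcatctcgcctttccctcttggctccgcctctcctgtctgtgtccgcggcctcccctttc
Aars held the motif on the minus strand 112 bases before the start and a further match after it, and Gars held 1 on the minus strand 30 bases before the start. The windows of Eprs and Lars2 held none.

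Levels between genes were compared per kilobase of the principal transcript of GENCODE vM21. The cytosolic enzymes had a median of 231 normalized counts per kilobase (74.9 to 465) and the mitochondrial enzymes a median of 35.6 (10.7 to 667). By this length the highest of all 40 was a mitochondrial enzyme, Lars2 for leucine, with 667 (593 to 760 over the 11 libraries). Its rank depends on the length used. The principal transcript of Lars2 has 3894 bases and all its annotated exons 11089, against 2380 and 3119 for Gars. The ranking of single genes was not repeated with the longer lengths. Kars for lysine (465), Wars for tryptophan (463), Vars for valine (452) and Gars for glycine (442) followed, and their ranges over the libraries overlapped. The lowest were Vars2 (10.7), Wars2 (11.3) and Mars2 (13.8), which charge mitochondrial tRNA with valine, tryptophan and methionine. Of 15 amino acids with both enzymes measured, the cytosolic level was above the mitochondrial one in all 11 libraries for 12, and the order was the reverse for 2. These were leucine, with a log2 ratio of Lars to Lars2 per length between −3.00 and −2.32, and cysteine, with a ratio of Cars to Cars2 between −1.98 and −0.07. For threonine the levels overlapped (−0.07 to 0.34). With the length of all annotated exons in place of the principal transcript, a choice added after the data were seen, the counts were 13 and 1. Gars and Kars each supply both compartments from a single gene, and Qars has no mitochondrial partner gene. The median coefficient of variation within groups was 9.21% for the cytosolic enzymes and 14.7% for the mitochondrial ones.

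**Figure D1:**
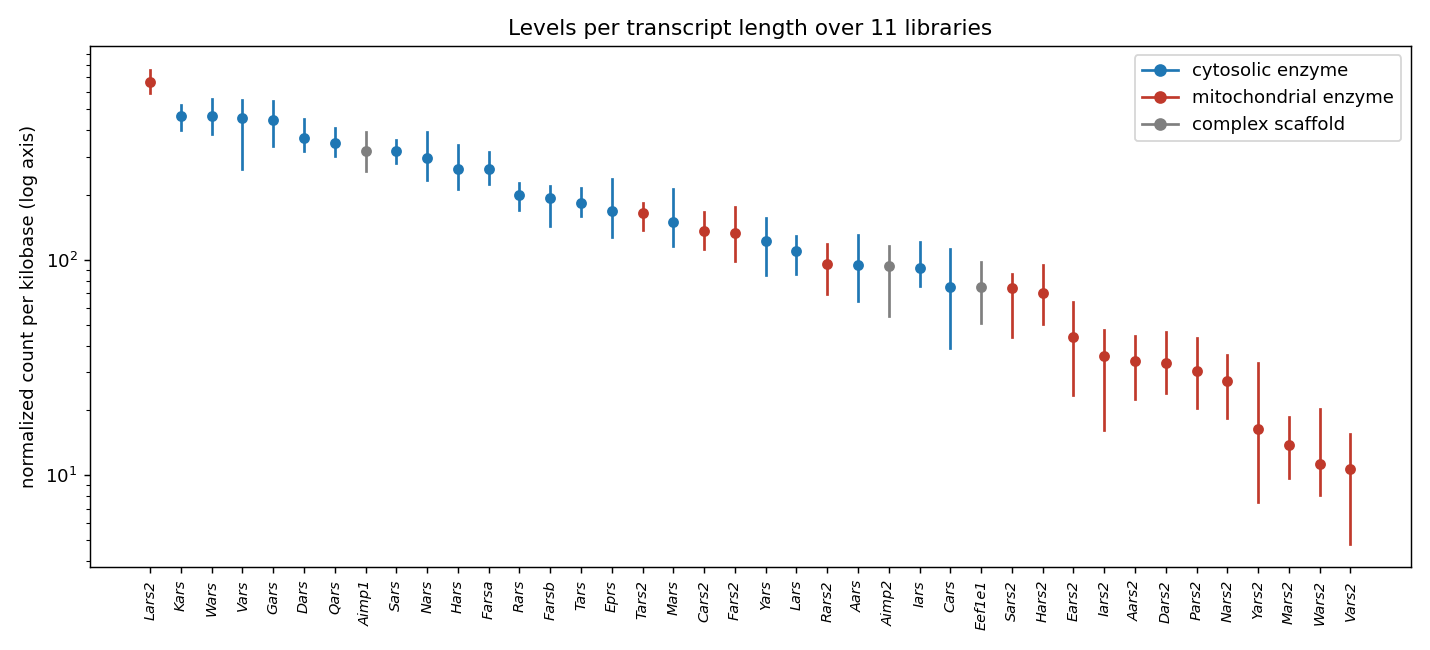
Normalized count per kilobase of the principal transcript (log axis) for each of the 40 genes, ordered by the mean over 11 libraries (points), with lines from the lowest to the highest library. By this length Lars2 is the highest at 667, the other mitochondrial enzymes lie at 165 or below, and the cytosolic enzymes lie between 74.9 and 465.

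In mice given adjuvant alone, 3 of the 40 genes differed between VAT and Spl/LN at an adjusted p under 0.05 by edgeR's quasi-likelihood test, beside 16.3% of all tested genes (9.09% higher and 7.17% lower in VAT). Eprs and Gars were higher in VAT, and Wars was lower. Of the mitochondrial enzymes 0 were called by edgeR, DESeq2 or limma, with 1 at an unadjusted p under 0.05 in edgeR. Of the 20 cytosolic enzymes 15 had an estimate above 0, with a median log2 fold change of 0.18. Of the 17 mitochondrial enzymes 7 did, with a median of −0.01, beside a median of −0.03 over all tested genes, of which 47.5% were above 0. Without VAT adjuvant alone replicate 2 the medians were 0.15 and −0.07, and 1 member (Vars) was called. At an unadjusted p under 0.05 there were 7 of 40 genes, beside 28.6% of all. The libraries of the tissues did not overlap for 7 members higher in VAT and 5 lower, beside 21% and 20.4% of all genes.

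Eprs, on chromosome 1 (185363044 to 185428360, GRCm38), encodes the bifunctional enzyme for glutamate and proline, a member of the multi-synthetase complex. It had 752, 637 and 751 normalized counts in Spl/LN and 975 and 1155 in VAT with adjuvant alone. After Fat1562 the counts were 718, 736 and 623 in Spl/LN and 842, 1019 and 862 in VAT. All 5 VAT libraries thus lay above all 6 Spl/LN libraries. The log2 fold change was 0.58 (SE 0.13, adjusted p = 0.00458 from edgeR) with adjuvant alone and 0.39 (SE 0.12, adjusted p = 0.0303) after Fat1562. The first call was lost without VAT adjuvant alone replicate 2 (0.44, adjusted p = 0.0957).

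Gars, on chromosome 6 (55038007 to 55079500), encodes the glycine enzyme of both the cytosol and mitochondria. It had 800, 822 and 1047 in Spl/LN and 1253 and 1105 in VAT with adjuvant alone, and 857, 1103 and 977 against 1186, 1292 and 1124 after Fat1562. The tissues did not overlap in either pair. With adjuvant alone the log2 fold change was 0.41 (SE 0.13, adjusted p = 0.0492), and this call, close to the threshold, was lost without either VAT library (0.31, adjusted p = 0.314 without replicate 1 and 0.49, adjusted p = 0.0813 without replicate 2). It was also lost without Spl/LN adjuvant alone replicate 1 (adjusted p = 0.133) or replicate 2 (adjusted p = 0.13). After Fat1562 the estimate was 0.29 (SE 0.12, adjusted p = 0.12).

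Wars, on chromosome 12 (108860030 to 108894174), encodes the cytosolic tryptophan enzyme and is known as a gene induced by interferon gamma. It had 807, 962 and 1013 in Spl/LN and 723 and 701 in VAT with adjuvant alone. After Fat1562 it had 958, 999 and 863 against 766, 800 and 697, so that all VAT libraries lay below all Spl/LN libraries. The log2 fold change was −0.38 (SE 0.12, adjusted p = 0.0432) with adjuvant alone and −0.32 (SE 0.11, adjusted p = 0.0593) after Fat1562. The first call was lost when any one of 4 libraries was left out (adjusted p from 0.105 to 0.189), both VAT libraries among them. Of 22 tested genes of a list for the interferon gamma response, 6 were called lower and 2 higher in VAT in each comparison. Of all tested genes 7.17% were lower and 9.09% higher with adjuvant alone, and 6.73% and 8.26% after Fat1562. Iigp1, a GTPase induced by interferon gamma, was lower in both (−1.59, adjusted p = 0.00159 and −0.79, adjusted p = 0.0399). Ifngr1, which encodes a chain of the receptor, was higher in both (2.22, adjusted p = 1.40e-11 and 1.28, adjusted p = 8.41e-09). Without VAT adjuvant alone replicate 2, the list had 2 called lower and 2 higher with adjuvant alone, Iigp1 (−1.95) and Ifngr1 (2.19) among them.

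Vars, the valine enzyme, was not called and was the member on which the 2 VAT adjuvant-alone libraries differed most in level. It had 2027, 2112 and 2161 in Spl/LN and 1091 and 1901 in VAT with adjuvant alone, and 1844, 1774 and 1681 against 1632, 2060 and 2276 after Fat1562. The estimate with adjuvant alone was −0.49 (SE 0.17, adjusted p = 0.0627). Without replicate 2, which left the low library by itself with the spread borrowed from the other groups, it was −0.95 (adjusted p = 7.30e-04). The estimates of the enzymes that were not called ran from −0.69 (Vars2, adjusted p = 0.315) to 0.37 (Lars, adjusted p = 0.155).

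**Figure D2:**
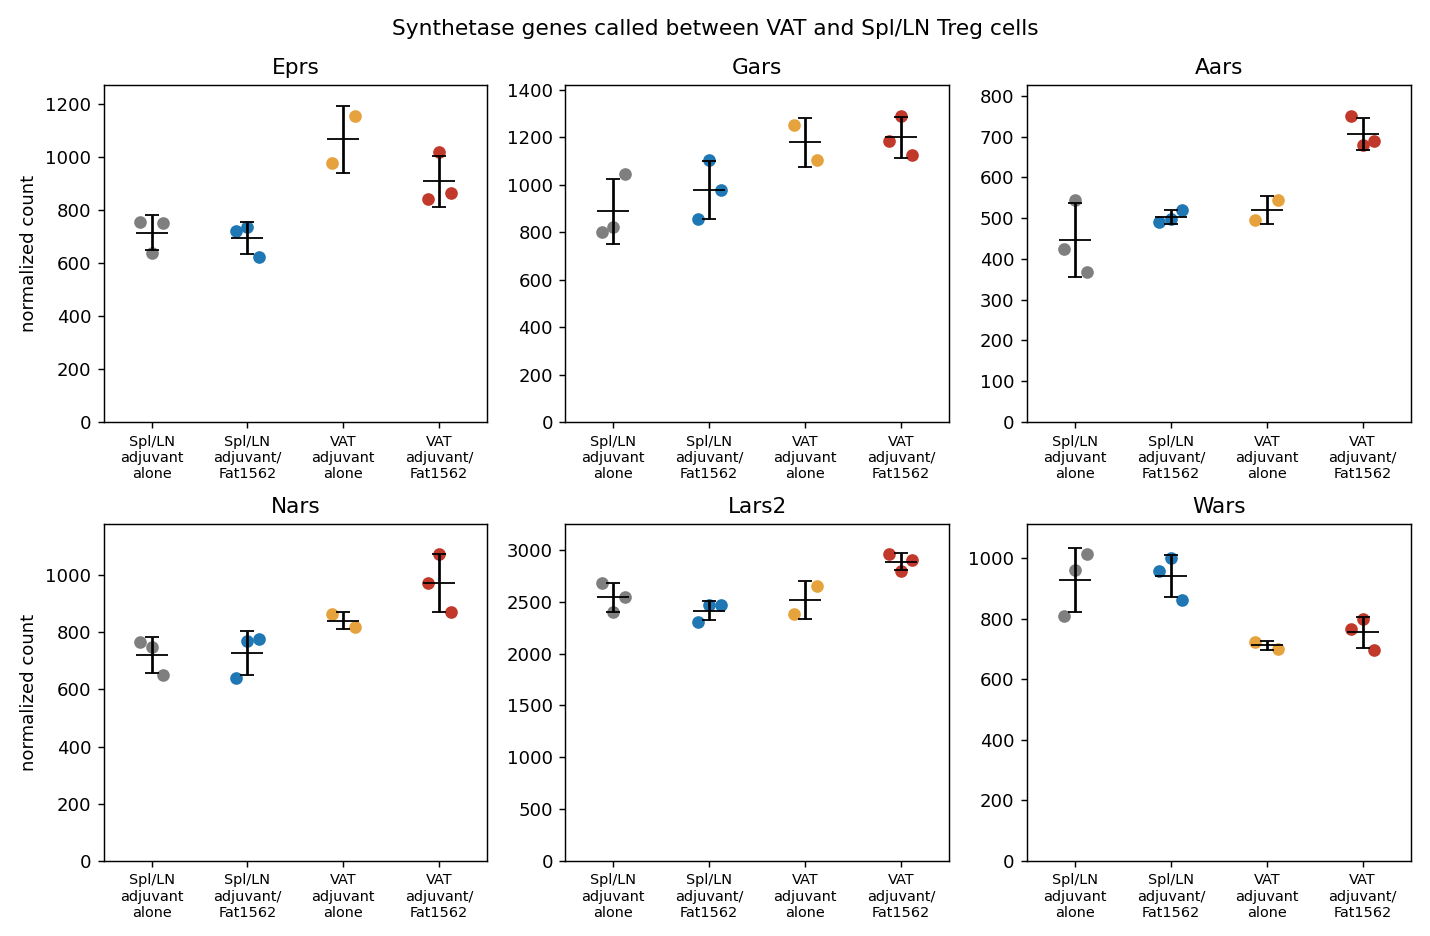
Normalized counts of the 6 genes called between tissues, 1 point per library, with the mean (long bar) and SD (error bars) of each group on axes that start at 0. The VAT libraries of Eprs and Gars lie above the Spl/LN libraries in both pairs of groups, the VAT adjuvant/Fat1562 libraries of Aars, Nars and Lars2 are the highest of the 11, and the VAT libraries of Wars lie below.

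With adjuvant/Fat1562, 4 of the 40 genes passed the same test between the tissues, beside 15% of all tested genes (8.26% higher and 6.73% lower in VAT), and all 4 were higher in VAT. They were the cytosolic enzymes Aars, Nars and Eprs and the mitochondrial enzyme Lars2. Of the cytosolic enzymes 17 of 20 had an estimate above 0, with a median of 0.18, and of the mitochondrial enzymes 5 of 17 did, with a median of −0.14. Over all tested genes the median was −0.01 and 49.4% were above 0. At an unadjusted p under 0.05 there were 11 members, beside 27.5% of all genes. The tissues did not overlap for 8 members higher and 6 lower in VAT, beside 18.8% and 17.4% of all genes. This comparison and that with adjuvant alone use different libraries.

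Aars, on chromosome 8 (111033144 to 111057664), encodes the cytosolic alanine enzyme. It had 424, 546 and 369 in Spl/LN and 495 and 544 in VAT with adjuvant alone, groups that overlapped. After Fat1562 it had 490, 497 and 521 in Spl/LN and 752, 679 and 688 in VAT, so that the VAT libraries lay above all others of the study. The log2 fold change between tissues was 0.49 (SE 0.13, adjusted p = 0.0171). The call was lost without Spl/LN adjuvant/Fat1562 replicate 1 or 2 or VAT adjuvant/Fat1562 replicate 1 (adjusted p from 0.0598 to 0.0786). Of the 38-base stretches of its transcripts 13.7% also occur in the overlapping gene Exosc6, and how such reads were counted is not given in the sources used here.

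Nars, the cytosolic asparagine enzyme, had 766, 749 and 649 in Spl/LN and 864 and 819 in VAT with adjuvant alone, and 640, 768 and 777 against 974, 1073 and 872 after Fat1562. Every VAT library was above every Spl/LN library. The log2 fold change was 0.22 (SE 0.13, adjusted p = 0.268) with adjuvant alone and 0.42 (SE 0.11, adjusted p = 0.0188) after Fat1562. The second call was lost without Spl/LN adjuvant/Fat1562 replicate 1, VAT adjuvant/Fat1562 replicate 1 or replicate 2 (adjusted p from 0.0546 to 0.111). For Eprs it was lost without Spl/LN replicate 1 or 3 or VAT replicate 2 (adjusted p from 0.06 to 0.17). Leaving out Spl/LN adjuvant/Fat1562 replicate 1 thus took away the calls of all 4 genes.

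Lars2, on chromosome 9 (123366927 to 123462666), encodes the mitochondrial leucine enzyme. It had 2682, 2398 and 2543 in Spl/LN and 2386 and 2648 in VAT with adjuvant alone, and 2307, 2469 and 2467 against 2958, 2797 and 2907 after Fat1562. The 3 VAT adjuvant/Fat1562 libraries were the highest of all 11. The log2 fold change after Fat1562 was 0.26 (SE 0.08, adjusted p = 0.0355), and it lost its call under 9 of 14 alternatives, including each of the 6 that left out a library (adjusted p from 0.0666 to 0.127). Its estimate with adjuvant alone was −0.01 (SE 0.09, adjusted p = 0.939).

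Among members not called after Fat1562, the largest estimates above 0 were those of Cars for cysteine (0.53, adjusted p = 0.0935), Mars for methionine (0.46, adjusted p = 0.101) and Eef1e1, a scaffold (0.41, adjusted p = 0.159). Below 0 the largest were those of the mitochondrial enzymes Pars2 for proline (−0.65, adjusted p = 0.124), Mars2 (−0.52, adjusted p = 0.0994), Yars2 for tyrosine (−0.49, adjusted p = 0.494) and Ears2 for glutamate (−0.44, adjusted p = 0.477). Pars2 had 78.2, 95.1 and 85.7 in Spl/LN and 61.8, 44.8 and 58.3 in VAT, and Mars2 had 210, 184 and 148 against 140, 110 and 128. Neither gene overlapped between the tissues, and both were at low counts. The 8 enzymes of the multi-synthetase complex had a median of 0.13 after Fat1562 and 0.20 with adjuvant alone, and the other 12 cytosolic enzymes 0.19 and 0.12. The scaffolds Aimp1, Aimp2 and Eef1e1 ran from 0.09 to 0.41 after Fat1562 and from −0.01 to 0.42 with adjuvant alone, with 0 called by edgeR, DESeq2 or limma in either and 1 and 0 at an unadjusted p under 0.05. The 5 cytosolic enzymes with TGATGNAA in the promoter had a median of 0.21 after Fat1562 (0.19 to 0.49), with 1 called. The 8 without it that matched RefSeq had 0.12 (−0.08 to 0.46), with 1 called. With adjuvant alone these medians were 0.22 and 0.03. For the effect of Fat1562 they were 0.20 and −0.01 within VAT and 0.14 and −0.10 within Spl/LN. For the interaction of tissue and peptide they were 0.02 and 0.08. The difference between these 2 sets of enzymes was not tested.

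**Figure D3:**
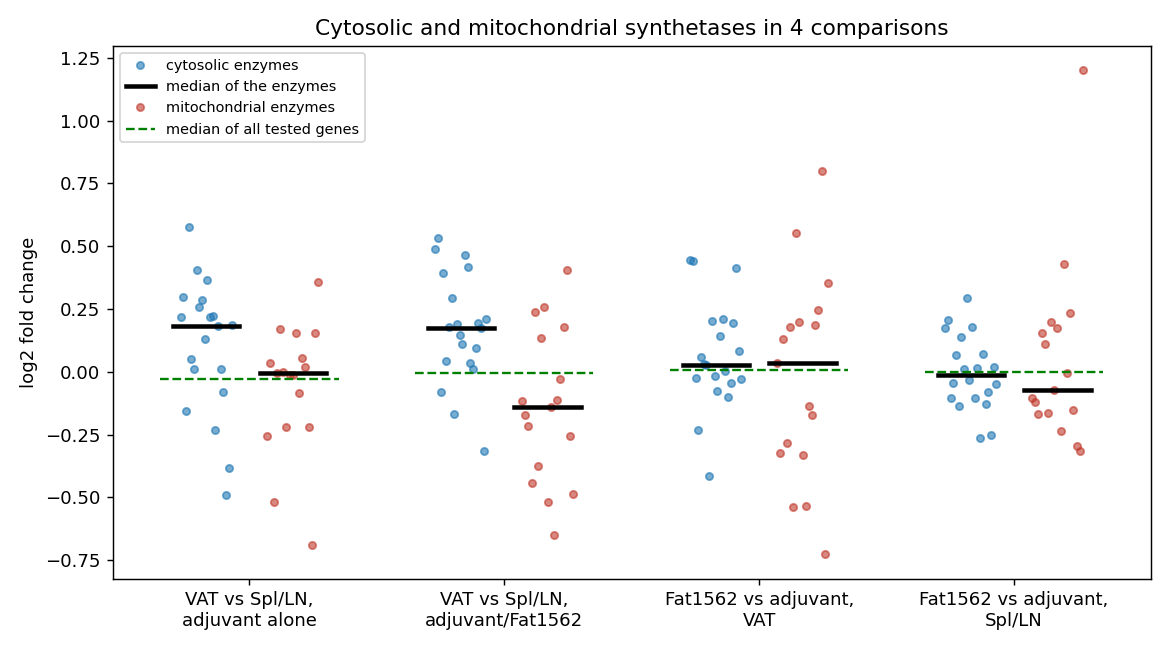
Log2 fold change of each cytosolic (blue) and mitochondrial (red) enzyme in 4 comparisons, with the median of each group of enzymes (black) and that of all tested genes (green, dashed). In both tissue comparisons the cytosolic median (0.18 and 0.18) lies above the mitochondrial one (−0.01 and −0.14), and in both Fat1562 comparisons the medians lie between −0.07 and 0.04.

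The cytosolic median was above the mitochondrial one under all 13 alternatives with adjuvant alone and all 14 after Fat1562, by 0.07 to 0.24 and by 0.24 to 0.36. The mean distance between the medians of log2 level per kilobase, cytosolic minus mitochondrial, was 2.46 ± 0.30 (SD, n = 3) in Spl/LN without peptide and 2.46 ± 0.06 (SD, n = 3) after it. In VAT these values were 2.88 ± 0.14 (SD, n = 2) and 2.58 ± 0.12 (SD, n = 3). With adjuvant alone the libraries of the tissues overlapped in this measure (2.23, 2.35 and 2.80 against 2.78 and 2.98), as they did after Fat1562 (2.41 to 2.52 against 2.46 to 2.70). The 40 genes together took 0.352% to 0.386% of counts as group means.

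The effect of Fat1562 within VAT was then examined. By edgeR 0 of the 40 genes were called, beside 8.3% of all tested genes (4.32% higher and 3.97% lower with peptide), and 0 by DESeq2 and by limma after quantile normalization. At an unadjusted p under 0.05 there were 5, namely Aars, Hars, Hars2, Lars2 and Vars, beside 21% of all genes. Aars had the estimate with the smallest p, 0.44 (SE 0.15, adjusted p = 0.0812), and its 3 libraries with peptide lay above the 2 without. The histidine enzymes Hars and Hars2, whose genes lie head to head and overlap by 195 exon bases on opposite strands, both had estimates below 0. They share 6.38% of the 38-base stretches of Hars, and the strand setting of the counting is not given in the sources used here. Hars had 674 and 569 with adjuvant alone and 425, 510 and 462 with adjuvant/Fat1562 (−0.42, SE 0.15, adjusted p = 0.0996). Hars2 had 315 and 212 against 167, 186 and 191 (−0.54, SE 0.21, adjusted p = 0.142). In neither gene did the groups overlap.

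The largest estimates in VAT belonged to mitochondrial enzymes at low counts. Vars2 had 29.3 and 36.2 with adjuvant alone and 62.9, 47.8 and 60.2 with adjuvant/Fat1562 (0.80, SE 0.43, adjusted p = 0.308). Wars2 had 69.4 and 57.4 against 36.0, 39.7 and 39.2 (−0.73, SE 0.38, adjusted p = 0.286). Their groups did not overlap, as was true of 9 members higher and 6 lower with peptide, beside 21.1% and 20% of all genes. The mitochondrial medians of all 17 (0.04) and the cytosolic one (0.03) were close to that of all genes (0.01), while the 17 ranged from −0.73 to 0.80 and the 20 from −0.42 to 0.44. Without VAT adjuvant alone replicate 2 the medians were 0.14 and 0.06, and Vars alone was called, at 0.87 (SE 0.16, adjusted p = 0.00448), against 0.41 (SE 0.17, adjusted p = 0.167) with both libraries.

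Within Spl/LN, Fat1562 gave 0 of 40 genes called by edgeR, beside 3.98% of all tested genes (2.58% higher and 1.4% lower with peptide), and 0 by DESeq2 and by limma. At an unadjusted p under 0.05 there were 3, beside 18.3% of all genes. Iars for isoleucine had 336, 333 and 338 with adjuvant alone and 425, 442 and 369 with adjuvant/Fat1562 (0.30, SE 0.13, adjusted p = 0.228). Qars for glutamine had 1046, 1087 and 1143 against 889, 939 and 902 (−0.26, SE 0.10, adjusted p = 0.145). Yars2 had 16.4, 20.8 and 11.9 against 52.4, 31.0 and 29.6 (1.20, SE 0.42, adjusted p = 0.129), the largest estimate of any member in any comparison from a gene among the lowest in counts. The groups did not overlap for these 3 genes, nor for 2 others, which made 3 members higher and 2 lower, beside 11.4% and 9.84% of all genes. The cytosolic median was −0.01 and the mitochondrial one −0.07, beside a median over all genes that was 0.00 at 2 decimals.

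The difference between the effects of Fat1562 in VAT and in Spl/LN was tested as the interaction of tissue and peptide. It was called by edgeR for 0 of 40 members, beside 3.72% of all tested genes (1.7% above and 2.02% below 0), and for 0 by DESeq2 and by limma. At an unadjusted p under 0.05 there were 4 (Hars, Lars2, Tars2 and Vars), beside 16.9% of all genes. Vars had the smallest p, with an interaction of 0.66 on the log2 scale (SE 0.23, adjusted p = 0.13). Without VAT adjuvant alone replicate 2 it was 1.12 (SE 0.19, adjusted p = 0.00516) and the only member called. For Aars the interaction was 0.27 (SE 0.20, adjusted p = 0.554), so its difference between tissues with peptide was not shown to differ from that without.

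**Figure D4:**
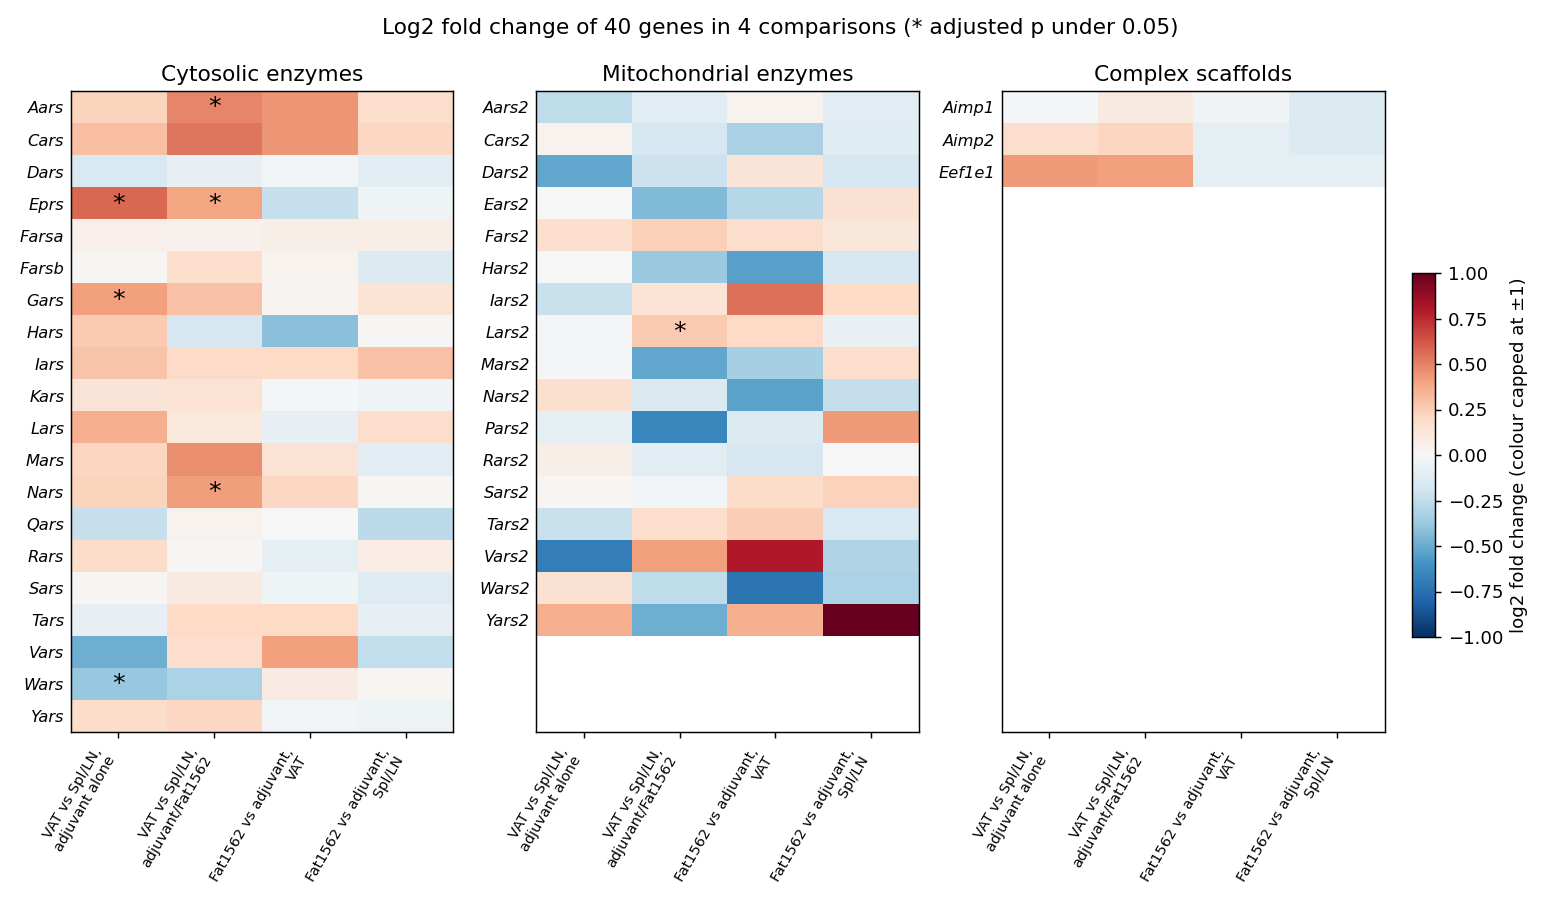
Log2 fold change of the 40 genes (rows) in 4 comparisons (columns), red for higher and blue for lower, with colour capped at ±1 and an asterisk for an adjusted p under 0.05. The asterisks number 3 in the first column, 4 in the second and 0 in both Fat1562 columns, and the mitochondrial enzymes show larger values of both signs within VAT.

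Other genes of the same pathways were followed through lists written by hand. The integrated stress response list holds Atf4 and genes under it. These include amino acid transporters and synthesis enzymes, and also Cebpb, Ddit4 and Eif4ebp1. Of the 28 genes 23 were tested. In VAT against Spl/LN, 6 were called higher and 2 lower with adjuvant alone, beside 9.09% and 7.17% of all tested genes. The median was 0.27. The 2 lower were Phgdh (−0.75, adjusted p = 2.92e-04) and Mthfd2 (−0.58, adjusted p = 0.00439). After Fat1562, 10 were called higher and 0 lower, with a median of 0.71, beside 8.26% and 6.73% of all tested genes. Asns, which makes asparagine, had 56.9, 34.4 and 26.5 in Spl/LN and 151 and 131 in VAT with adjuvant alone (log2 fold change 1.84, SE 0.29, adjusted p = 1.80e-04), and 60.1, 46.0 and 44.0 against 257, 272 and 217 after Fat1562 (2.31, adjusted p = 5.22e-06). Atf4 itself was 0.90 (adjusted p = 4.24e-05) and 0.71 (adjusted p = 1.99e-04) higher on the log2 scale in VAT, and the glutamine and neutral amino acid transporter Slc38a2 1.51 and 1.07. These estimates were larger than those of any synthetase called here. As in all tissue comparisons here, tissue and the digestion of VAT cannot be told apart in them. Of 13 sensors and regulators of the response, 2 were called higher and 0 lower in VAT in both tissue comparisons, beside the same shares of all genes. Ppp1r15a, the phosphatase subunit that ends the response, had 264, 157 and 263 in Spl/LN and 7289 and 6735 in VAT with adjuvant alone (4.94, SE 0.17, adjusted p = 1.72e-12). Fat1562 lowered it within VAT, where it had 3017, 2566 and 2545 after peptide (−1.37, adjusted p = 1.12e-05), and within Spl/LN (−0.77, adjusted p = 0.0115). Of the 13 sensors and regulators Fat1562 lowered 3 and raised 0 within VAT, beside 3.97% and 4.32% of all tested genes. Beside Ppp1r15a these were Impact (−0.67, adjusted p = 0.0422) and Eif2ak1 (−0.47, adjusted p = 0.0449). In Spl/LN Ppp1r15a was the only one called, beside 1.4% of all tested genes lower. Of the integrated stress response targets, Fat1562 within VAT raised 4 and lowered 0, beside 4.32% and 3.97% of all tested genes. Cebpb (2.88), at low counts, and Ddit4 (1.45) were among them. Phgdh and Mthfd2, enzymes of serine synthesis and mitochondrial folate metabolism, were the others, at 0.90 (adjusted p = 1.32e-04) and 0.65 (adjusted p = 0.00391). Their interaction with tissue was called too (1.05 and 0.74). Phgdh had a mean of 606 ± 49.0 (SD, n = 2) in VAT with adjuvant alone and 1130 ± 55.7 (SD, n = 3) with peptide. In Spl/LN its means were 1018 ± 77.9 and 914 ± 99.3 (SD, n = 3 each). The means of Mthfd2 in the same order were 372, 585, 558 and 524. Without VAT adjuvant alone replicate 2 the targets had 6 called higher and 2 lower between tissues with adjuvant alone, 3 higher and 0 lower within VAT, and 1 in place of 2 in the interaction, where Phgdh (1.14, adjusted p = 0.00492) was called and Mthfd2 (0.78, adjusted p = 0.0649) was not. Between tissues the estimates were then 1.93 for Asns, 0.97 for Atf4, 1.43 for Slc38a2 and 4.99 for Ppp1r15a, all called. Of the sensors and regulators 2 were then called higher between tissues, and within VAT 1 was called lower, Ppp1r15a (−1.43).

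Of the list of 20 Myc and growth genes, 19 were tested. In VAT 2 were called higher and 1 lower with adjuvant alone, beside 9.09% and 7.17% of all tested genes. After Fat1562 12 were called higher and 0 lower, beside 8.26% and 6.73%. Without VAT adjuvant alone replicate 2 the first counts were 2 and 0. Within Spl/LN Fat1562 lowered 6 of the list, beside 1.4% of all tested genes. Myc was among the 6, with 531, 484 and 484 before and 291, 294 and 261 after peptide (−0.83, SE 0.14, adjusted p = 0.00235). In VAT Myc had 1048 and 1086 with adjuvant alone and 1146, 1222 and 797 with adjuvant/Fat1562. No synthetase was called in Spl/LN beside these 6. Within VAT Fat1562 raised 1 gene of the list (Rrs1, 0.69) and lowered 0, beside 4.32% and 3.97% of all tested genes. The interaction was called by edgeR above 0 for 3 and below 0 for 0, beside 1.7% and 2.02%. These were Rrs1 (1.13, adjusted p = 0.0226), Myc (0.81, adjusted p = 0.0376) and Npm1 (0.68, adjusted p = 0.00461). Without VAT adjuvant alone replicate 2 their estimates were 1.21, 0.84 and 0.73, and that of Rrs1 within VAT 0.76. Of 14 tested genes of other tRNA charging, such as the subunits of the mitochondrial glutamyl-tRNA amidotransferase, edgeR called 0 in each of the 5 comparisons. At an unadjusted p under 0.05 there were 3, 4, 1, 2 and 0 in the order given above. The shares of all tested genes were 28.6%, 27.5%, 21%, 18.3% and 16.9%. DESeq2 called 1 in each tissue comparison and limma 1 in that with adjuvant alone.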

How the data were processed

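The authors deposited whole-number counts per gene symbol, 1 column per library, and 0 columns were left unmatched to a sample. The submitters' processing notes name STAR 2.5.4, featureCounts and mm10, the paper's methods name Cuffquant, and annotation, strand and multi-mapping settings are not given in the sources used here. Reads carried no molecular identifiers. Counts were fitted in R 4.3.3 with edgeR 4.0.16 (TMM, quasi-likelihood test, all 11 libraries in 1 fit of 4 groups, prior count 0.125) over the 12932 genes whose mean passed 10 in some group. Calls were made at a Benjamini-Hochberg adjusted p under 0.05, and the common biological coefficient of variation was 19.1%. The scripts were tested on simulated data. Alternatives used limma 3.58.1, DESeq2 1.42.0, other filters and size factors, a replicate block and libraries left out.

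The members and lists were chosen with earlier results of these data known. Values per library were to be given for called members, and of other lists at most the 4 called genes with the largest fold change per comparison. Vars, Hars, Hars2, Vars2, Wars2, Iars, Qars, Yars2, Pars2 and Mars2, and Atf4 with adjuvant/Fat1562, were shown after their values had been seen. So were Phgdh and Mthfd2 between tissues with adjuvant alone. Promoters came from RefSeq (GRCm38.p6) and gene positions and lengths from GENCODE vM21 (GRCm38).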

Additional observations from a re-analysis of the deposited data

How the results depend on the processing

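When each fit held only its own groups, the number of members called went from 3 to 1 between tissues with adjuvant alone, from 4 to 7 with adjuvant/Fat1562 and from 0 to 1 (Aars) for Fat1562 in VAT. With no filter on low counts, Vars was called in VAT and in the interaction, 1 member in each. Leaving out 1 library gave 1 to 2 members between tissues with adjuvant alone, 0 to 4 with adjuvant/Fat1562, 0 to 1 in VAT and 0 to 1 in the interaction. The 1 in VAT and in the interaction was Vars without VAT adjuvant alone replicate 2. Between tissues with adjuvant alone it was 1 without Spl/LN replicate 2 or either VAT library. With adjuvant/Fat1562 it was 0 without Spl/LN replicate 1, 1 without VAT replicate 1 or 2, and 2 without Spl/LN replicate 2 or 3. These fits hold fewer samples, and a group left with 1 library was assumed to vary like the others. Over the 7 calls of single genes, 61 of 95 alternatives kept the call, 34 lost it and 0 reversed it. The medians of the cytosolic and mitochondrial enzymes moved by less than the spread between libraries under all 149 alternatives. Medians close to 0 could still change sign within that spread. The mitochondrial median ran from −0.06 to 0.14 for Fat1562 in VAT (0.04 in the main fit). Between tissues with adjuvant alone it ran from −0.12 to 0.05 (−0.01 in the main fit). The choice of exon length and the lists without VAT adjuvant alone replicate 2 were added after the data were seen.

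The replicate numbers were not taken to pair the libraries, since the sources do not say whether a number marks the same mouse. In their deviations, same-numbered libraries correlated between 0.03 and 0.05 across tissues and between −0.04 and 0.002 across peptide groups. These low values do not show that the libraries of the tissues are unpaired. With the replicate block, 2 members were called between tissues with adjuvant alone (Eprs and Vars) and 3 with adjuvant/Fat1562 (Aars, Eprs and Nars).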

Other observations

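Genes of translation beside the synthetases gave these values. Of the 6 cytosolic elongation factors tested, edgeR called 4 higher in VAT than in Spl/LN with adjuvant/Fat1562, beside 8.26% of all tested genes. They were Eef1a1 (log2 fold change 0.25, adjusted p = 0.00302), Eef1b2 (0.29, adjusted p = 0.0161), Eef2 (0.22, adjusted p = 0.0114) and Eif5a (0.28, adjusted p = 0.0276). The count depended on the tool: DESeq2 called 4 and limma after quantile normalization 0 there, while with adjuvant alone edgeR and DESeq2 called 0 (2 at an unadjusted p under 0.05 in edgeR) and limma 4. Of the 13 mitochondrial translation factors tested, 3 were called lower in VAT with adjuvant alone and 0 higher, beside 7.17% and 9.09% of all genes. The 3 were Mtrf1l, a release factor (−1.37), Elac2, which trims tRNA precursors (−0.77), and Gfm2, a ribosome recycling factor (−0.58). DESeq2 and limma called 4 each. None of the 3 was called without VAT adjuvant alone replicate 2. Of the 14 genes tested that the mitochondrial genome encodes, 4 were called lower and 0 higher with Fat1562 in Spl/LN. All 14 estimates there were below 0 (median −0.52), and 1.4% of all tested genes were called lower. Within VAT 3 were called lower and 0 higher, beside 3.97% of all genes lower. There 12 of the 14 estimates were below 0 (median −0.23). The interaction of tissue and peptide was called for 0 of the 14. The VAT and interaction counts were not repeated without VAT adjuvant alone replicate 2.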
